A study of Rattus norvegicus with 6 samples.

Results

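The genes described here are 10 cardiac potassium channel genes, taken by exact symbol from the table of read counts per gene: Kcnd2, Kcnd3, Kcnip2, Kcnj2, Kcnj3, Kcnj5, Kcnj11, Kcna5, Kcnh2 and Kcnq1. Of these, 9 were measured among 32883 rows with a gene name, and Kcnd2 was not analysed here. All 9 passed the filter on low counts. The hearts came from male wild-type Sprague–Dawley rats, an outbred strain, aged 8 weeks and weighing 250 to 300 g. One group of 3 rats was injected under the skin with saline and the other group of 3 with ISO at 1.5 mg/kg/day, both for 7 days, and each rat gave 1 RNA-seq library. The abbreviation ISO was taken to mean isoproterenol, which activates beta-adrenergic receptors, and the series uses it as a model of myocardial hypertrophy and fibrosis. The labels give the tissue as heart without naming a chamber.

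Potassium channels carry the outward currents that end the cardiac action potential and hold the resting potential between beats. A working channel is built from pore-forming subunits, often 4 in a ring, with accessory subunits that set its gating and its transport to the membrane. In the rat ventricle the fast transient outward current, carried by Kv4 channels, is a major repolarizing current, whereas channels gated by acetylcholine through G proteins slow the atria and the pacemaker. Loss of the transient outward and inward rectifier currents is a known feature of hypertrophied and failing hearts.

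Kcnj5 was higher in ISO hearts than in saline hearts and was the member that passed the test, at 1.65-fold. Its partner Kcnj3 overlapped between the groups, and the ratio of Kcnj5 to Kcnj3 was higher in every ISO library than in any saline library. Kcnd3 and Kcnj2 stood lower in every ISO library than in any saline library but did not pass the test. Outside the 9 members, Kcnj12, another inward rectifier, and Kcnk2, a two-pore channel, were called lower. Kcnh2, Kcnq1, Kcna5, Kcnip2 and Kcnj11 overlapped between the groups.

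The libraries held 14880391 to 17299589 counts. ISO differed from saline in 2.97% of 13766 tested genes (edgeR quasi-likelihood test, Benjamini-Hochberg adjusted p under 0.05), with 1.47% higher and 1.5% lower, against 1 of the 9 members higher and none lower. The 3 ISO libraries lay all above or all below the 3 saline libraries in 28.8% of genes (14.1% higher and 14.6% lower), against 3 of the 9 members (1 higher and 2 lower). Before adjustment, 22.9% of genes and 3 members had an edgeR p under 0.05. The median log2 fold change was −0.07 over the members and 0.02 over all tested genes. Values below are CPM, the counts of a gene scaled to library size, after TMM scaling, which corrects library size for a few very abundant genes, and each log2 fold change sets ISO against saline. Cardiomyocyte markers were abundant in all libraries, with 11 of them summing to 50284 to 63844 CPM in saline and 37683 to 56056 CPM in ISO. Fibroblast markers (8 genes) summed to 2077 to 2471 CPM in saline and 3638 to 12088 CPM in ISO, and macrophage markers (8 genes) to 269 to 315 and 467 to 774 CPM. In heart tissue, fewer cells of a type and less RNA per cell cannot be told apart. The part of these cell types in the channel values was not tested.

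**Figure D1:**
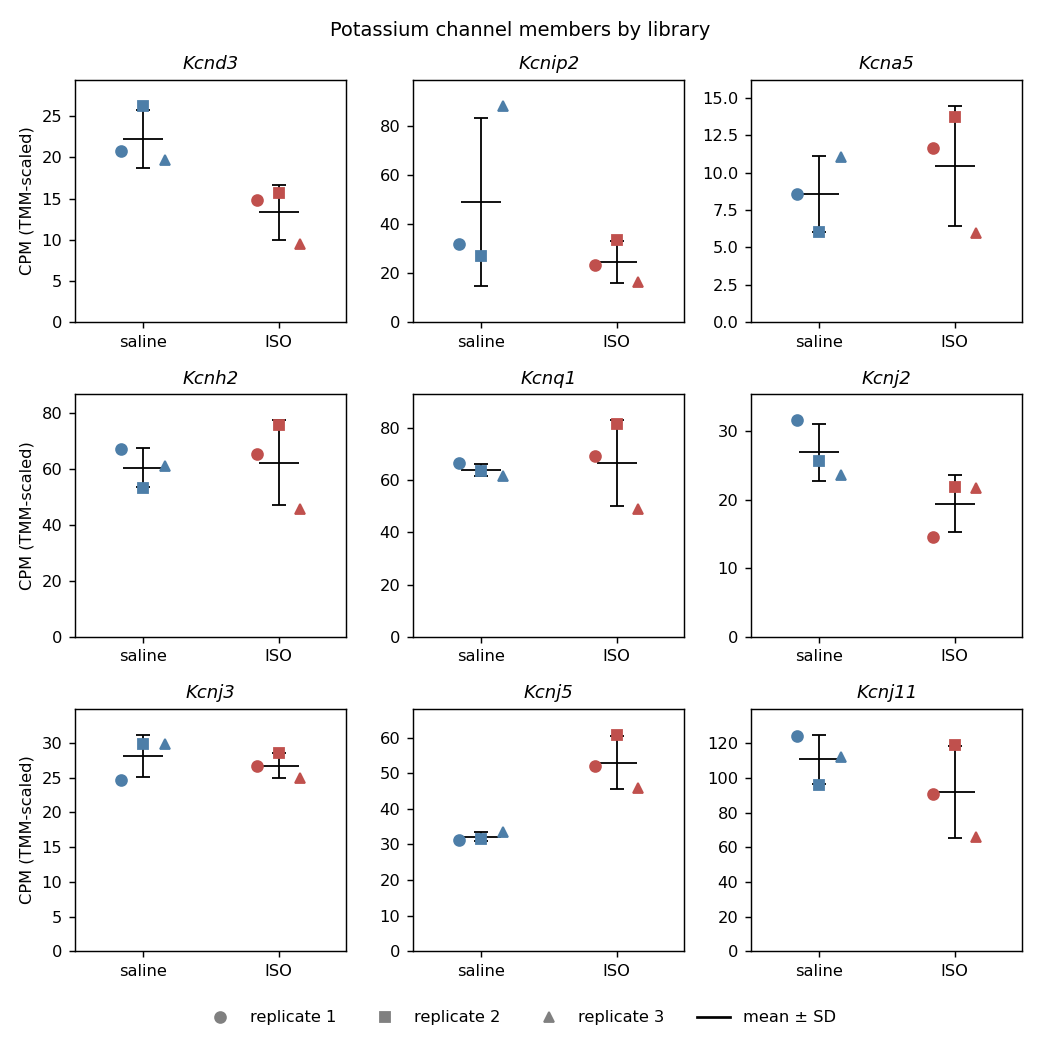
CPM (vertical axes, each from 0) of the 9 measured members in 3 saline and 3 ISO libraries, with 1 point per library and the group mean ± SD in black. The 3 ISO points of Kcnj5 lie above its saline points, and those of Kcnd3 and Kcnj2 lie below theirs.

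**Figure D2:**
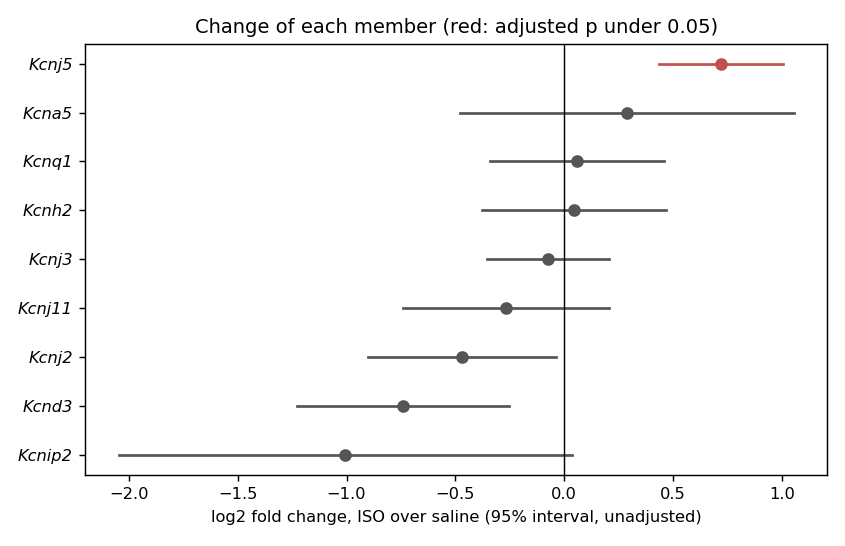
Log2 fold change of each member, ISO over saline, with its 95% interval from the edgeR fit, unadjusted for the number of genes. Kcnj5, in red, passed the test across all genes, and the intervals of Kcnd3 and Kcnj2 lie below 0 although neither passed after adjustment.

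Kcnj5 and Kcnj3 encode Kir3.4 and Kir3.1, the 2 subunits of the potassium channel that acetylcholine opens through the M2 muscarinic receptor. Kcnj5 (ENSRNOG00000033796) had 31.3, 31.6 and 33.5 CPM in saline, in the order of replicates 1 to 3 used throughout, against 52.0, 60.7 and 46.0 CPM in ISO. The saline libraries lay close together and all 3 ISO libraries lay above them. Kcnj5 rose from 32.1 ± 1.24 to 52.9 ± 7.43 CPM (SD, n = 3 each), a log2 fold change of 0.72 (SE 0.12, 95% interval 0.43 to 1.004, edgeR adjusted p = 0.0276). DESeq2 and limma voom also called it, with adjusted p of 3.93e-04 and 0.0333. The call was lost without saline replicate 1, 2 or 3 (edgeR adjusted p = 0.113, 0.0976 and 0.117) and without ISO replicate 1 (0.094), whereas the log2 fold change stayed between 0.61 and 0.81 when any 1 library was left out. The call was also lost with the replicate number as a block (edgeR adjusted p = 0.081), where 0.203% of genes were called.

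Kcnj5 is the member with a call, and its promoter is shown for that reason. The sequence is the 250 bases before the start of Kcnj5 in RefSeq, build GRCr8, at chr8:39011097-39011346 on the minus strand, read 5′ to 3′ along the gene. Capitals mark the GC box, searched as GGGCGG on both strands.
Kcnj5: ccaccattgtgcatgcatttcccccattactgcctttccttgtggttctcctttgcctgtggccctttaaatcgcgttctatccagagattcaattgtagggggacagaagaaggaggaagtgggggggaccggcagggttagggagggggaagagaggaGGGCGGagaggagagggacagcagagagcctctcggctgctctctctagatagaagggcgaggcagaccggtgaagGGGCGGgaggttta
The window held 2 GC boxes, a motif found in 32.4% of 27457 rat promoter windows of this length. It held no TGACG, the half-site of the cAMP response element, which was found in 19.0% of all windows, and no AGATAA or TATAAA, found in 10.05% and 13.1% (both strands). These matches describe letters in 1 window and were not tied to the change in Kcnj5.

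Kcnj3 (ENSRNOG00000005369) stood at 24.7, 29.9 and 29.9 CPM in saline and at 26.7, 28.5 and 25.0 CPM in ISO. Every ISO value fell inside the saline range. Its log2 fold change was −0.07 (SE 0.12, 95% interval −0.35 to 0.21, edgeR adjusted p = 0.763), and its sign changed without scaling (0.035) and when scaled to cardiomyocyte markers (0.16). The ratio of Kcnj5 to Kcnj3 read counts, which no library scaling can alter, was 1.27, 1.06 and 1.122 in saline and 1.94, 2.13 and 1.84 in ISO. The ISO ratios all lay above the saline ratios, and the mean log2 ratio rose by 0.78 (SD 0.13 in saline and 0.11 in ISO, n = 3 each). The two-sided exact permutation p was 0.1, the smallest that 20 splits of 3 against 3 allow, and 0.5 after adjustment over 5 ratios. This ratio of read counts is not a ratio of molecules, since the 2 transcripts differ in length.

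Kcnj5 and Kcnj3 are more abundant in atria than in ventricles, and 7 of 9 atrial markers were highest in ISO replicate 1. The atrial light chain genes Myl7 and Myl4 stood at 70.7 and 54.8 CPM there, against at most 1.56 and 2.93 CPM in the other 5 libraries. Sln, the atrial regulator of the calcium pump, stood at 42.0 CPM there, against at most 0.821 CPM elsewhere. The 9 atrial markers summed to 387 CPM in ISO replicate 1, to 172 and 143 CPM in ISO replicates 2 and 3 and to 166 to 178 CPM in saline. Kcnj5 was highest in ISO replicate 2, where Myl7 stood at 1.06 CPM, and it stood at 46.0 CPM in ISO replicate 3, where Myl7 had 0 reads. Without ISO replicate 1 the log2 fold change of Kcnj5 was 0.73 (SE 0.15), against 0.72 with all libraries, and the call was lost (edgeR adjusted p = 0.094). The 4 ventricular markers summed to 1435 to 2124 CPM in saline and to 839 to 1011 CPM in ISO, and all 4 had a log2 fold change below 0. Most of that sum was Fhl2, at 1842, 1263 and 1474 CPM in saline and at 670, 795 and 738 CPM in ISO. Fhl2, named after its values were seen, was called lower (−1.06, SE 0.17, edgeR adjusted p = 0.0207). Irx4 was lower without overlap but was not called. Myl2 and Hey2, also named after their values were seen, overlapped between the groups (edgeR adjusted p = 0.281 and 0.705). The ventricular list shares Irx4 with the transcription factors described further on. The part of chamber composition in the channel values, Kcnd3, Kcnj12 and the Irx genes included, was not tested.

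**Figure D3:**
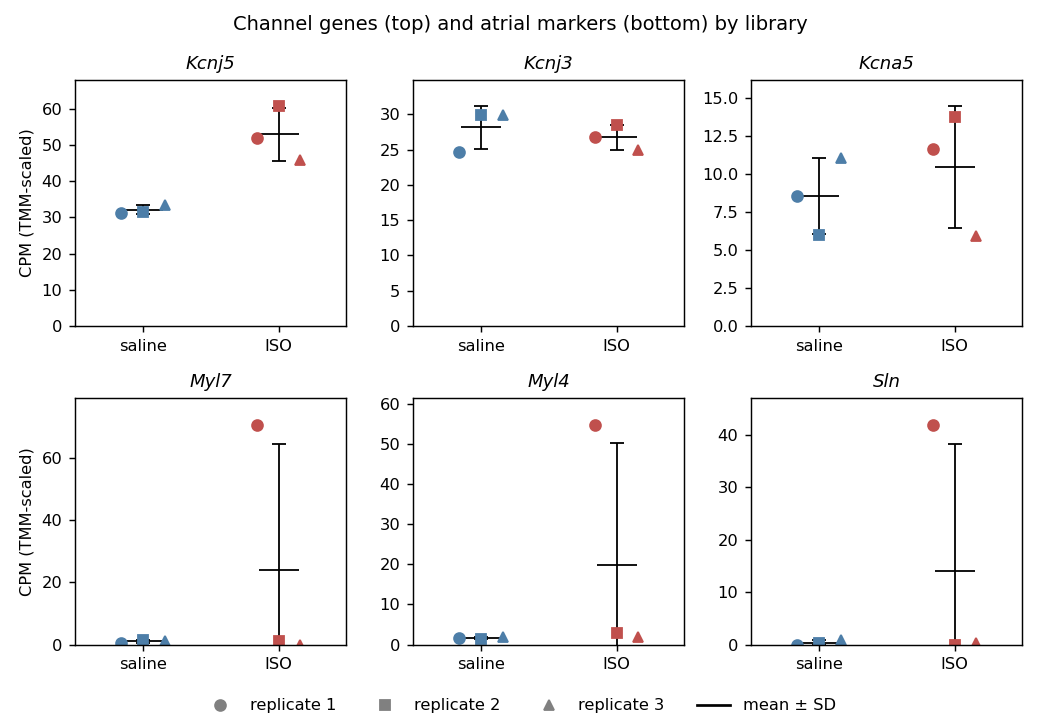
CPM (vertical axes) of Kcnj5, Kcnj3 and Kcna5 above and of the atrial markers Myl7, Myl4 and Sln below, with 1 point per library and mean ± SD, the bars being clipped at 0. These 3 of the 9 atrial markers are high in ISO replicate 1, and Kcnj5 is above saline in all 3 ISO libraries.

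Around this channel, 8 genes of its receptor input were tested, with 0 called higher and 1 lower, where 2.97% of all genes were called. Of the 8, 5 had an unadjusted edgeR p under 0.05, against 22.9% of all genes, and 1 was higher and 3 were lower without overlap, against 14.1% and 14.6% of all genes. Gnai2, an inhibitory G protein subunit and the gene higher without overlap, was named after its values were seen. It stood at 259.6, 264 and 287 CPM in saline and at 322, 317 and 334 CPM in ISO, a change of 0.26 (SE 0.10, edgeR adjusted p = 0.18) that did not pass. Rgs6, which speeds the closing of the channel by switching off its G protein, fell from 56.0 ± 2.70 to 34.0 ± 4.06 CPM, or −0.72 on the log2 scale (SE 0.12, edgeR adjusted p = 0.0225). It stood at 52.9, 57.6 and 57.5 CPM in saline and at 38.3, 33.5 and 30.3 CPM in ISO, with no overlap. The call was lost when Rgs6 was fitted without saline replicate 1, 2 or 3 (edgeR adjusted p = 0.0827, 0.0814 and 0.115) or ISO replicate 1 (0.0617), and with the replicate block (0.0781). Scaled to the cardiomyocyte markers, Rgs6 stood at −0.48 and was not called (edgeR adjusted p = 0.209). Chrm2, the M2 receptor gene, stood at 64.0, 71.7 and 65.9 CPM in saline and at 43.4, 50.6 and 56.1 CPM in ISO, and its change of −0.42 (SE 0.12, edgeR adjusted p = 0.0891) did not pass. DESeq2 called Chrm2 lower (adjusted p = 0.0433).

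Kcnj2 encodes Kir2.1, the main inward rectifier that holds the resting potential of ventricular cells. Kcnj2 (ENSRNOG00000004720) stood at 31.6, 25.6 and 23.6 CPM in saline and at 14.6, 21.9 and 21.8 CPM in ISO. The ISO libraries lay below the saline libraries, with a narrow gap between ISO replicate 2 and saline replicate 3. The log2 fold change was −0.47 (SE 0.19, 95% interval −0.90 to −0.04, edgeR adjusted p = 0.186) and was −0.31 without ISO replicate 1. Scaled to the cardiomyocyte markers, Kcnj2 stood at −0.21 (SE 0.25).

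Kcnj12 encodes Kir2.2, which can join Kir2.1 in 1 channel. It was lower in ISO, at 23.3, 17.01 and 20.02 CPM in saline and at 8.64, 10.6 and 6.59 CPM in ISO. The groups were separated by a wide gap, and Kcnj12 fell by 1.22 on the log2 scale (SE 0.21, edgeR adjusted p = 0.026), 2.33-fold. The call was lost when Kcnj12 was fitted without saline replicate 1, 2 or 3 (edgeR adjusted p = 0.1, 0.0677 and 0.116) or ISO replicate 1 (0.0925), with the replicate block (0.075) and on the cardiomyocyte scale, where Kcnj12 stood at −1.001 (edgeR adjusted p = 0.071). The ratio of Kcnj12 to Kcnj2 read counts was 0.737, 0.664 and 0.850 in saline and 0.593, 0.485 and 0.304 in ISO. This ratio was chosen after its values were seen and is a description only.

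The promoters of Kcnj2 and Kcnd3, the members whose ISO libraries all lay below saline, are shown beside that of Kcnj5. Both are the 250 bases before the start in RefSeq, build GRCr8, on the plus strand, at chr10:96559975-96560224 for Kcnj2 and chr2:195626066-195626315 for Kcnd3, with the GC box in capitals.
Kcnj2: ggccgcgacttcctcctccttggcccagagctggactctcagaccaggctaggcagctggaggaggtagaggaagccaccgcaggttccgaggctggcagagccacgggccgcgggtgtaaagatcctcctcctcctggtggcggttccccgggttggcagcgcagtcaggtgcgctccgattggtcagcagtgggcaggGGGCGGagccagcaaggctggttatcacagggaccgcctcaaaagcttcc
Kcnd3: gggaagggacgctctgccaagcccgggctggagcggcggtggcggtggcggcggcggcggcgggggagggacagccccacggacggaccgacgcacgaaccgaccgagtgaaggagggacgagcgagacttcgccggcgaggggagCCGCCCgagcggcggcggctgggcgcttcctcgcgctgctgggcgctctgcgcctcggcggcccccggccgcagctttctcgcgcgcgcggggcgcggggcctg
Each window held 1 GC box, in Kcnd3 on the opposite strand. The windows of Kcnd3, Kcnj2 and Kcnj5 had 79.6%, 66.0% and 57.2% G and C, against a median of 52.0% over all windows. None of the 3 held TGACG.

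Kcnd3 encodes Kv4.3, a pore-forming subunit of the fast transient outward current, and Kcnip2 encodes KChIP2, the calcium-binding subunit that brings Kv4 channels to the membrane. Kcnd3 (ENSRNOG00000014686) stood at 20.8, 26.3 and 19.6 CPM in saline and at 14.8, 15.7 and 9.45 CPM in ISO. Every ISO library lay below every saline library, and ISO replicate 3 was lowest. The mean was 22.2 ± 3.54 CPM in saline and 13.3 ± 3.37 CPM in ISO, or −0.74 on the log2 scale (SE 0.21, 95% interval −1.23 to −0.25, edgeR adjusted p = 0.0916). DESeq2 called Kcnd3 lower (adjusted p = 0.0276) and Kcnj5 higher, 2 of the 9 members, where it called 9.73% of genes in all and 4.53% lower. The rule stated with the series, with p under 0.05 before adjustment and a log2 change beyond 0.5 either way, also took Kcnd3 and Kcnj5, where it took 9.58% of genes with DESeq2 and 13.2% with edgeR. Leaving out any 1 library gave −0.88 to −0.54 for Kcnd3 and no call.

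Kcnip2 (ENSRNOG00000050450) stood at 31.9, 26.9 and 88.5 CPM in saline and at 23.3, 33.6 and 16.5 CPM in ISO. Saline replicate 3 was 3.29 times the lowest saline library, the widest spread among the 9 members, and the other saline libraries overlapped ISO. The log2 fold change of −1.01 (SE 0.45, 95% interval −2.04 to 0.03, edgeR adjusted p = 0.231) rested on that library and was −0.27 (SE 0.28) without it. The 7 conduction system markers summed to 59.1, 25.2 and 73.3 CPM in saline and to 37.4, 32.1 and 48.5 CPM in ISO, and 3 of the 7 had 0 reads in saline replicate 3. Most of the sum in saline replicate 3 was the pacemaker channel gene Hcn4 (57.5 CPM). Among the saline libraries, Hcn4 and Tbx3 (12.1, 9.44 and 13.5 CPM) were highest in replicate 3. Vsnl1 and Shox2 were lowest there, on few reads (18, 28 and 5 for Vsnl1, and 6, 5 and 0 for Shox2). Their part in the Kcnip2 value was not tested. The ratio of Kcnip2 to Kcnd3 read counts was 1.53, 1.02 and 4.50 in saline and 1.57, 2.15 and 1.74 in ISO, with a two-sided exact permutation p of 1 (adjusted p = 1 over 5 ratios).

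Kcna4, which encodes Kv1.4 of the slow transient outward current, stood at 6.13, 5.44 and 6.38 CPM in saline and at 3.95, 6.99 and 5.25 CPM in ISO, a change of −0.15 (SE 0.25, edgeR adjusted p = 0.765). Kcnd1, the Kv4.1 gene, was covered by 14, 15 and 27 reads in saline and by 45, 36 and 85 in ISO. The ISO counts were all higher, and the change of 1.47 (SE 0.42, edgeR adjusted p = 0.0914) did not pass, whereas DESeq2 called it (adjusted p = 0.0375). The ratio of Kcna4 to Kcnd3 was 0.296, 0.208 and 0.326 in saline and 0.267, 0.447 and 0.557 in ISO (two-sided exact permutation p = 0.3, adjusted p = 0.5). Dpp6, an accessory subunit of Kv4 channels, had 1 to 10 counts in each library and was not tested, and Kcnab1, a beta subunit of Kv1 channels, stood at 2.87 ± 0.44 and 2.86 ± 0.563 CPM.

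The Iroquois factors Irx3, Irx4 and Irx5 take part in the patterning of the ventricle and of Kv4 expression, and none of the 5 transcription factors listed was called. Irx3 stood at 20.9, 23.9 and 22.9 CPM in saline and at 8.58, 12.0 and 15.6 CPM in ISO, a change of −0.90 (SE 0.21, edgeR adjusted p = 0.0588). Irx4, named after its values were seen, gave −0.54 (SE 0.12, edgeR adjusted p = 0.0515). Both were lower without overlap, and both were called by DESeq2 (adjusted p = 0.00342 for Irx3 and 0.0122 for Irx4) and by edgeR without a filter (0.0363 and 0.0461). Irx5 overlapped between groups at −0.54 (SE 0.22, edgeR adjusted p = 0.194), and Klf15, a circadian regulator of Kcnip2, gave −0.05 (SE 0.20, edgeR adjusted p = 0.919). Of these 5 factors, 3 had an unadjusted edgeR p under 0.05, against 22.9% of all tested genes.

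Kcna5, Kcnh2 and Kcnq1 encode the pores of the delayed rectifier currents, Kv1.5 of the ultrarapid, hERG of the rapid and Kv7.1 of the slow component. All 3 overlapped between the groups. Kcna5 (ENSRNOG00000019719) stood at 8.58, 6.003 and 11.1 CPM in saline and at 11.7, 13.7 and 5.95 CPM in ISO. ISO replicate 3 was the lowest of all 6 libraries and ISO replicate 2 the highest. The change was 0.29 (SE 0.33, 95% interval −0.48 to 1.05, edgeR adjusted p = 0.654), and it was 0.57 without ISO replicate 3 and 0.04 without ISO replicate 2.

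Kcnh2 (ENSRNOG00000009872) stood at 67.2, 53.1 and 61.0 CPM in saline and at 65.3, 75.6 and 45.8 CPM in ISO. Kcnq1 (ENSRNOG00000020532) stood at 66.4, 63.5 and 61.6 CPM in saline and at 69.1, 81.5 and 49.0 CPM in ISO. In both genes ISO replicates 2 and 3 lay above and below the whole saline range. The log2 fold change was 0.04 (95% interval −0.38 to 0.47, edgeR adjusted p = 0.918) for Kcnh2 and 0.06 (95% interval −0.34 to 0.46, edgeR adjusted p = 0.877) for Kcnq1. Kcnq1 varied by 3.75% among the saline libraries and by 24.7% among the ISO libraries, as SD over mean. Kcnq1ot1 is an antisense RNA within Kcnq1. Any of its reads over the counted parts of Kcnq1 cannot be told apart from Kcnq1 reads unless the counting used strand.

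The KCNE genes encode small subunits that set the speed of Kcnq1 and Kcnh2 channels, and of 5 of them 3 were tested. Of these, 0 were called by edgeR or DESeq2 and 0 had an unadjusted edgeR p under 0.05. Over all genes those shares were 2.97%, 9.73% and 22.9%, and 3 genes are too few to set against them. Kcne1, the partner that makes the Kcnq1 current slow, was covered by 3, 0 and 6 reads in saline and by 0, 7 and 3 in ISO, and no difference in its ratio to Kcnq1 was detectable at this depth (two-sided exact permutation p = 1, adjusted p = 1). Kcne4 stood at 1.05 ± 0.698 CPM in saline and 2.41 ± 1.26 CPM in ISO, a change of 1.20 (SE 0.56, edgeR adjusted p = 0.241).

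Kcnj11 encodes Kir6.2, the pore of the ATP-sensitive channel that opens when energy runs low. Kcnj11 (ENSRNOG00000021128) stood at 124, 95.9 and 112 CPM in saline and at 90.7, 119 and 66.0 CPM in ISO. ISO replicate 2 lay within the saline range and the other ISO libraries below it. The change was −0.27 (SE 0.21, 95% interval −0.74 to 0.21, edgeR adjusted p = 0.48), and it was −0.50 without ISO replicate 2 and −0.07 without ISO replicate 3.

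Of 3 partner genes of this channel, 0 were called by edgeR or DESeq2, and 0 had an unadjusted edgeR p under 0.05. The shares over all genes were 2.97%, 9.73% and 22.9%, and 3 genes are too few to set against them. Abcc9, the sulfonylurea receptor SUR2, stood at 354 ± 16.1 CPM in saline and 355 ± 22.3 CPM in ISO, a log2 fold change of 0.00 (SE 0.11, 95% interval −0.25 to 0.26). Abcc8, the receptor SUR1, gave −0.28 (SE 0.16, edgeR adjusted p = 0.34), and Kcnj8, the Kir6.1 pore of vascular cells, gave 0.10 (SE 0.13, edgeR adjusted p = 0.694). The ratio of Kcnj11 to Abcc9 read counts was 0.344, 0.285 and 0.306 in saline and 0.249, 0.320 and 0.200 in ISO. ISO replicate 2 lay inside the saline range, and the two-sided exact permutation p was 0.3 (adjusted p = 0.5 over 5 ratios).

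**Figure D4:**
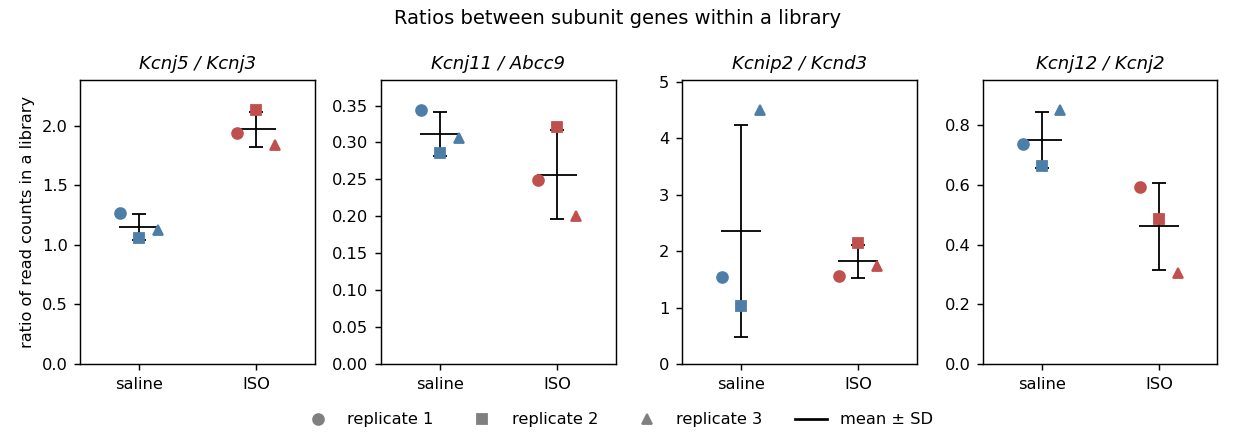
Ratio of the read counts of 2 genes within each library (vertical axes, from 0), with 1 point per library and mean ± SD. The Kcnj5 to Kcnj3 ratio separates the groups, the Kcnj12 to Kcnj2 ratio, chosen after its values were seen, also separates them, and the other 2 ratios overlap.

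Of 86 other potassium channel genes measured, 36 passed the filter on low counts. Of these 36, 0 were called higher and 2 lower, against 1.47% and 1.5% of all tested genes. Their median log2 fold change was 0.00, with 18 above 0 and 18 below. Kcnk2, which encodes TREK-1, a two-pore channel opened by stretch and lipids, was lower beside Kcnj12. It stood at 35.6, 21.7 and 32.9 CPM in saline and at 15.03, 12.3 and 15.2 CPM in ISO, without overlap, and fell by 1.08 on the log2 scale (SE 0.20, edgeR adjusted p = 0.0326). The Kcnk2 call was lost without saline replicate 1 or 3 (edgeR adjusted p = 0.112 and 0.146), without ISO replicate 1 or 3 (0.0947 and 0.0519), with the replicate block (0.0555), without scaling (0.0552) and on the cardiomyocyte scale (0.149, at −0.79).

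Kcng2, which encodes the silent subunit Kv6.2, stood at 239, 241 and 199 CPM in saline and at 168, 182 and 142 CPM in ISO. All ISO values lay below saline, yet the change of −0.46 (SE 0.13, edgeR adjusted p = 0.094) was called by DESeq2 alone (adjusted p = 0.0231). Kcnk3, the two-pore channel TASK-1, stood at 187 ± 10.3 and 225 ± 66.7 CPM (edgeR adjusted p = 0.467). Of 9 tested calcium- and sodium-activated channel genes 0 were called by edgeR or DESeq2, against 2.97% and 9.73% of all genes. Of the same 9, 0 had an unadjusted edgeR p under 0.05, against 22.9% of all genes. Kcnn3, the most abundant of the 9 and a small-conductance channel, gave −0.21 (SE 0.31, edgeR adjusted p = 0.728). Kcnn3 ran against most of its set, in which 7 of 9 had a log2 fold change above 0 and the median was 0.63, with Kcnt2 at 1.19 (SE 0.55, edgeR adjusted p = 0.239) as the highest, named after its values were seen. At an unadjusted edgeR p under 0.05, 4 of these 36 genes passed, against 22.9% of all genes. DESeq2 gave a p-value for 74 of the 86 genes and called 4, against 9.73% of the 13655 genes with an adjusted p. How many of the 74 had an adjusted p was not counted. Kcnd1 was called higher and Kcng2, Kcnj12 and Kcnk2 lower, and voom called 2 of the 36. Groups did not overlap in 8 of the 36, with 4 higher and 4 lower, against 28.8% of all genes.

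**Figure D5:**
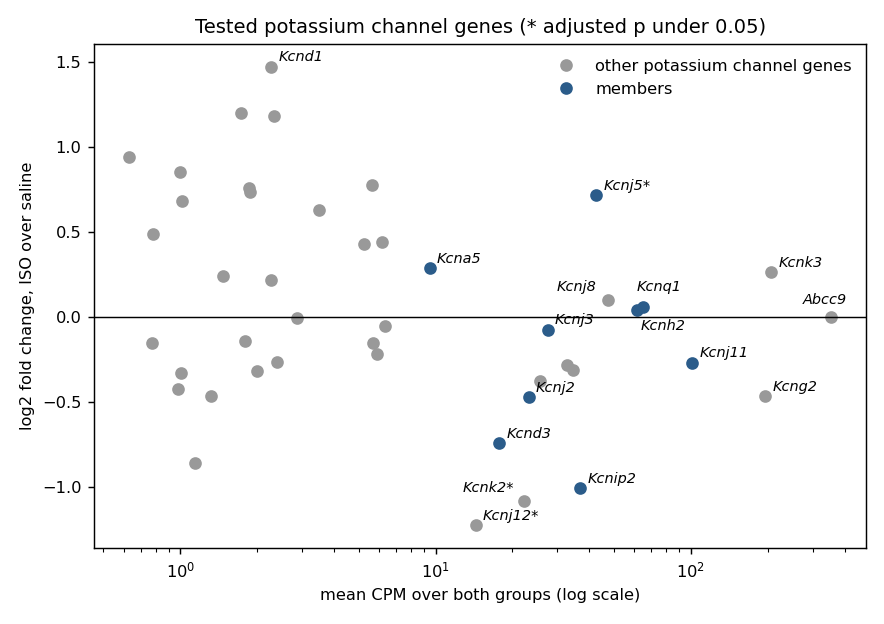
Log2 fold change, ISO over saline (vertical axis), against the mean CPM over both groups (horizontal log axis) for the 9 members in blue and 36 other tested potassium channel genes in grey. Asterisks mark Kcnj5, Kcnj12 and Kcnk2, which passed the edgeR test.

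Scaffold and transport genes of these channels were not called, in 6 of 6, where 2.97% of all tested genes were called. Among them Dlg1, a membrane scaffold for Kv and Kir2 channels named after its values were seen, gave −0.28 (SE 0.10, edgeR adjusted p = 0.15). Of the 6, 1 had an unadjusted edgeR p under 0.05, against 22.9% of all tested genes.

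In 8 of the 9 members the ISO libraries had the same order, and the share of all genes with that whole order was not counted. All 9 were highest in ISO replicate 2, where 36.6% of all tested genes had their highest ISO value, and 8 of the 9 were lowest in ISO replicate 3, where 35.6% of all tested genes had their lowest. The exception was Kcnj2, which was lowest in ISO replicate 1 and nearly equal in replicates 2 and 3 (21.9 and 21.8 CPM). Kcnj3 followed the order over a narrow range, from 25.0 to 28.5 CPM. The summed cardiomyocyte markers had the order of those 8 members, at 56056 CPM in ISO replicate 2, 45846 CPM in replicate 1 and 37683 CPM in replicate 3. The summed fibroblast markers had the reverse, at 3638, 4891 and 12088 CPM. Most of that last sum was Col1a1 (6356 CPM) and Postn (2025 CPM). Single markers differed from these sums: Pdgfra, Tcf21 and Tnni3 were highest in ISO replicate 1, and Pln was lowest there. These 6 markers were named after their values were seen. The part of these cell types in the order of the members was not tested. In saline no library took more than 4 of the 9 highest values.

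Scaling to the mean log2 CPM of the cardiomyocyte markers, in place of TMM, raised the median of all genes by 0.25. On that scale Kcnj5 stood at 0.95 (SE 0.17, edgeR adjusted p = 0.0481) and was still called, where 0.523% of genes were called, with 0.443% higher. Relative to the median of all genes it stood at 0.67, against 0.70 with TMM. Kcnd3 stood at −0.54 (SE 0.24, edgeR adjusted p = 0.242) on that scale, and at −0.82 relative to the median, against −0.76 with TMM.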

How the data were processed

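RNA from 6 rat hearts was sequenced as 150 bp paired reads, aligned with HISAT2 and counted per gene with featureCounts, per the series description. The deposited values are raw read counts, and per the submitters' processing notes the build is mm10, although named rows carry rat Ensembl identifiers. Tool versions and the strand setting were not stated. Of 33889 rows, 1006 had no gene name and were left out (0.981% to 1.32% of counts). Every pair of libraries differed beyond sampling noise (chi-square per degree of freedom of at least 19.99). The edgeR, DESeq2 and voom p-values set the group difference against the spread between 3 rats per group, estimated with information shared across genes. Depth was 14880391 to 17299589 counts, and 3 counts equal 0.175 to 0.204 CPM.

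Counts were tested with edgeR 4.0.16 (quasi-likelihood, TMM, default filter) in R 4.3.3, adjusted over 13766 genes, and with DESeq2 1.42.0 and limma 3.58.1 voom. The standard error is the fold change divided by the square root of F. The scripts were tested on simulated data. Ratios had 0.5 counts added. Members and lists were chosen with earlier results of these data known. Named genes were all members, called channel and regulator genes, fixed partners, the most abundant tested gene of each role among the other channel genes, and the regulators Irx3, Irx5, Chrm2 and Klf15. Marker genes with 0 reads in a library, such as Myl7, Sln and Shox2, could be named as well. Other names were chosen after their values were seen, as stated beside them. The same holds for Myl4, Hcn4, Tbx3 and Vsnl1. Alternatives were other scalings, filters, tools and thresholds, a replicate block, no mitochondrial genes and each library left out. Promoters matched by symbol for 7 of 12 genes looked up.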

Additional observations from a re-analysis of the deposited data

How the results depend on the processing

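Kcnj5 kept its direction in all 17 alternatives, from 0.61 to 0.95, and lost its call in 5. The series' rule gave 2 of the 17. It set another threshold on the main edgeR fit and the DESeq2 fit, so its direction was that of those fits. Called members numbered 2 with DESeq2 and 2 by the series' rule with either tool, 0 with the replicate block, and 0 to 1 when 1 library was left out. Other potassium channel genes called numbered 1 without scaling, 0 on the cardiomyocyte scale and 4 with DESeq2. They numbered 7 by the series' rule with DESeq2, 0 with the block and 0 to 3 with a library left out. Those 7 (5 higher and 2 lower) were of 74 genes, where the rule took 9.58% of all genes. Among the 7, Kcna6 (2, 2 and 2 reads in saline, 14, 7 and 36 in ISO) had not passed the main filter. Kcnc1 (2, 1 and 0 reads in saline, 17, 30 and 6 in ISO) had not passed it either. Both were named after their values were seen. Channel regulators called, 1 in the main result, numbered 0 on the cardiomyocyte scale, 3 without a filter, 4 with DESeq2, 4 by the series' rule with either tool, 2 without mitochondrial genes, 0 with the block and 0 to 2 with a library left out. All genes called, 409 in the main result, numbered 72 on the cardiomyocyte scale (61 higher and 11 lower), 1329 with DESeq2, 1922 and 1812 by the series' rule with DESeq2 and edgeR, 28 with the block and 12 to 838 with a library left out. The split was 203 higher and 206 lower with TMM and 280 and 123 without scaling.

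Signs changed where values were near 0. Kcnj3 stood at 0.035 without scaling, which raised the median of all genes by 0.11, and at 0.16 on the cardiomyocyte scale. With 1 library left out, Kcnh2 ranged from −0.12 to 0.23 and Kcnq1 from −0.12 to 0.24. Kcnh2 was negative without saline replicate 2 (−0.04) or ISO replicate 2 (−0.12), and Kcnq1 without ISO replicate 2 (−0.12). The log2 ratio of Kcnip2 to Kcnd3 ranged from −0.54 to 0.53 and that of Kcne1 to Kcnq1 from −1.14 to 1.11. The cause was not tested. Same-numbered saline and ISO libraries shared little deviation (r = 0.09, −0.10 and 0.02 across genes), so the numbers were not taken as pairs. Ratios planned with Kcnd2 (3) were not run. The ratios of Kcnip2 and Kcna4 to Kcnd3, among the 5 adjusted together, were not planned and were added in their place. With 3 rats a group the exact test cannot go below 0.1.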
